A study of Homo sapiens with 36 samples.

Results

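Axon guidance molecules are the secreted and membrane-bound cues that steer growing axons and migrating cells, together with the receptors that read them. The set described here comprised 47 genes of the EPH receptor, ephrin, semaphorin, plexin, neuropilin, ROBO, SLIT and netrin families, chosen by gene symbol from the 34687 symbols of the authors' value table. All 47 were present in that table, and 44 had a probe above background on at least 3 of the 36 arrays and were tested beside all 22850 genes that met the same criterion. EPHA5 and EPHA7, both receptors of A-type ephrins, were above background on 0 arrays, and EFNA5, an A-type ephrin, on 1 array. These 3 genes were not tested.

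Gene expression was measured on 36 Illumina beadchips with RNA from WA09 cells, a human embryonic stem cell line, in 12 groups of 3 arrays. Cells of day 0 and of day 1 formed a group each. The DSi (dual SMAD inhibition) cultures grew in 100 nM LDN-193189, an inhibitor of BMP type I receptors, with 10 µM SB431542, an inhibitor of the activin, Nodal and TGF-beta type I receptors, and were collected on days 3, 6, 8 and 11. The NC (neural crest) cultures received both compounds at these doses and 3 µM CHIR 99021, a GSK3 inhibitor that turns on the WNT pathway. Their collection days matched those of DSi. For BE (melanocyte), the 3 compounds of the NC condition were combined with 25 ng/ml BMP4 and 100 nM EDN3, endothelin 3, which binds EDNRB, and cells were taken at days 8 and 11. Days 0 and 1 carry LDN-193189 and SB431542 in their labels without any condition, so whether the day 0 cells had been exposed is not stated. Before differentiation the line was kept on mouse embryonic fibroblasts, and it was then plated on matrigel. All groups are labelled as embryonic stem cells, no sort of the cells is named, and it is not said whether replicates were separate cultures, so p-values measure only the spread among these arrays, which may be technical.

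Ephrins are membrane-bound ligands of the EPH receptor tyrosine kinases, and contact between them usually repels a growth cone or a migrating cell. Semaphorins act through plexins, with neuropilins as co-receptors for the secreted class 3 members. SLIT proteins repel axons through ROBO receptors, and netrins attract through DCC or repel through UNC5 receptors. In the embryo the same systems also keep streams of migrating neural crest cells apart, and they pattern the eye and the forebrain.

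Arrays had a mean signal of 214.7 to 462.5, with 16055 to 19724 of 47323 probes above background. The arrays of a group correlated at 0.972 to 0.987. For 31 of 36 arrays the best-correlated array was a replicate of the same group, and the other 5 were day 3 arrays nearest to the array of the other condition with the same replicate number. In DSi at day 3, replicate 1 has a title without the suffix of the other DSi titles, whose meaning is unexplained. Values below are log2 normalized signals, means carry the SD of 3 arrays, and differences carry the SE of a limma fit to all arrays. A difference counted as higher or lower when its Benjamini-Hochberg p, adjusted over all 22850 genes, was under 0.05.

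The conditions were checked against marker genes, whose summed level is the log2 of the summed signals of a list. Pluripotency markers fell from a summed level of 14.52 to 14.75 on day 0 to between 11.99 and 12.71 in the day 11 groups, and 8 of 9 tested markers were lower in DSi, 8 in NC and 9 in BE. NANOG, PRDM14 and GDF3 were not above background in any day 11 group. Neural crest markers differed between the conditions from day 6, with 9 of 9 higher in NC than in DSi at days 8 and 11. At day 11 their summed level was 12.91 to 13.15 in NC, 13.37 to 13.53 in BE and 9.99 to 10.58 in DSi, where SOX10, FOXD3 and PAX3 were not above background. Forebrain and eye field markers went the other way, with 9 of 10 lower in NC than in DSi at day 11 and summed levels of 10.41 to 10.68 and 13.55 to 14.00. LHX2, SIX3, HESX1 and FEZF1 were not above background in NC at day 11, and neither was HESX1 in DSi. Pan-neuronal markers had a summed level of 13.46 to 14.08 in NC, 10.85 to 11.59 in DSi and 11.20 to 11.65 in BE at day 11. Of 9 tested, 8 were higher in NC than in DSi and 8 lower in BE than in NC. Sensory neuron markers reached 12.21 to 12.96 in NC, 7.92 to 8.70 in DSi and 10.57 to 10.89 in BE, with 6 of 8 higher in NC than in DSi. Melanocyte markers reached 14.10 to 14.31 in BE, 11.60 to 12.20 in NC and 12.33 to 13.11 in DSi. All 7 of 7 were higher in BE than in NC, and 2 were higher and 3 lower in NC than in DSi. These lists moved with the comparisons of the guidance genes described below, and their part in those results was not tested. In bulk RNA, fewer cells of a type and less RNA per cell cannot be told apart.

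The share of guidance genes called was above that of all genes in each comparison. Counts were in both directions except for NC versus DSi at day 3, where the share rested on 1 gene. At day 1 against day 0, 4 of the 44 were higher and 3 lower (15.9%), while 4.4% of all genes tested differed, 2.41% higher and 2% lower. At day 11 against day 0, 16 were higher and 4 lower in DSi (45.5%), where 27.4% of all genes differed, 13.7% higher and 13.6% lower. In NC 19 were higher and 10 lower (65.9%), where 29.4% of all genes differed, 15% higher and 14.4% lower. In BE 15 were higher and 9 lower (54.5%), where 28.8% of all genes differed, 14.5% higher and 14.3% lower. These 3 comparisons share the day 0 arrays. Between NC and DSi at day 3, 1 was higher and 0 lower (2.27%), while 0.481% of all genes differed, 0.267% higher and 0.214% lower. The 1 call, EFNB1, was lost in several alternatives and without most single arrays, as given below. At an unadjusted p under 0.05 in limma, 2 were higher and 2 lower. At day 6, 5 were higher in NC and 7 lower (27.3%), against 5.38% of all genes, 2.67% higher and 2.72% lower. Among the higher ones, SLIT1 and DCC had met the detection filter through NC arrays alone. At day 8, 6 were higher and 7 lower (29.5%), against 6.69% of all genes, 3.37% higher and 3.32% lower. At day 11, 10 were higher and 9 lower (43.2%), against 11.1% of all genes, 5.55% higher and 5.56% lower. Between BE and NC at day 8, 2 were higher and 2 lower (9.09%), against 1.85% of all genes, 1.25% higher and 0.604% lower. At day 11, 7 were higher in BE and 6 lower (29.5%), against 8.74% of all genes, 4.67% higher and 4.06% lower. The shares for each comparison are plotted beside those of all genes. The median absolute log2 difference of the 44 genes at day 11 between NC and DSi was 0.57, against 0.21 for all genes, while their signed median was -0.22 against 0.00. The genes were chosen with earlier results of these data known, so these shares describe the set and are no test of it.

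**Figure D1:**
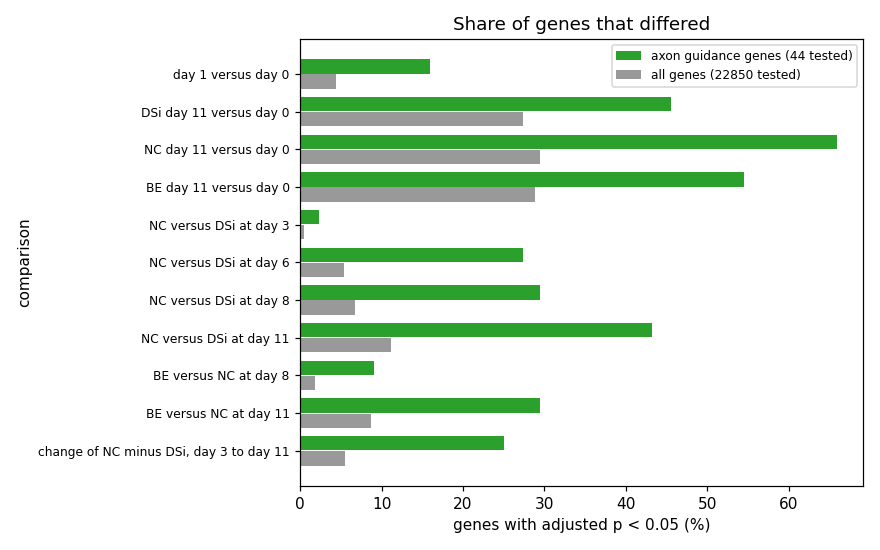
Percent of genes with an adjusted p under 0.05 (x axis) in each comparison (y axis), for the 44 guidance genes tested (green) and for all 22850 genes tested (grey). The green bar is longer in each comparison, from 2.27% against 0.481% for NC versus DSi at day 3 to 65.9% against 29.4% for NC at day 11 versus day 0. The day 3 bar rests on 1 guidance gene.

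The number of the 44 genes above background on all 3 arrays of a group ranged from 23 on day 1 to 32 in NC at day 8. The share of all genes above background on all 3 arrays was also lowest on day 1, at 49.1%. That share was highest in NC and in DSi at day 8, at 54.5% each. In DSi at day 8, 26 of the 44 genes were above background on all 3 arrays. As a share of the 44, the count was above the share of all genes in every group. The shares called thus compare sets that differ in detection. Of all 44, 28 were called between NC and DSi on at least 1 day (63.6%, against 16.2% of all genes) and 5 on at least 3 days (11.4%, against 1.86% of all genes), namely EPHA4, EPHB1, NRP2, SEMA4D and SLIT2. EFNA3, EPHA3, PLXNC1, SEMA3D, SEMA6D and UNC5C were called in 0 comparisons, and each was above background on 3 to 13 of the 36 arrays and on all 3 arrays of 0 groups, so they were measured only near background. At an unadjusted p under 0.05 in limma, EPHA3 had 3 of 11 comparisons, UNC5C 2 and the other 4 genes 0.

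**Figure D2:**
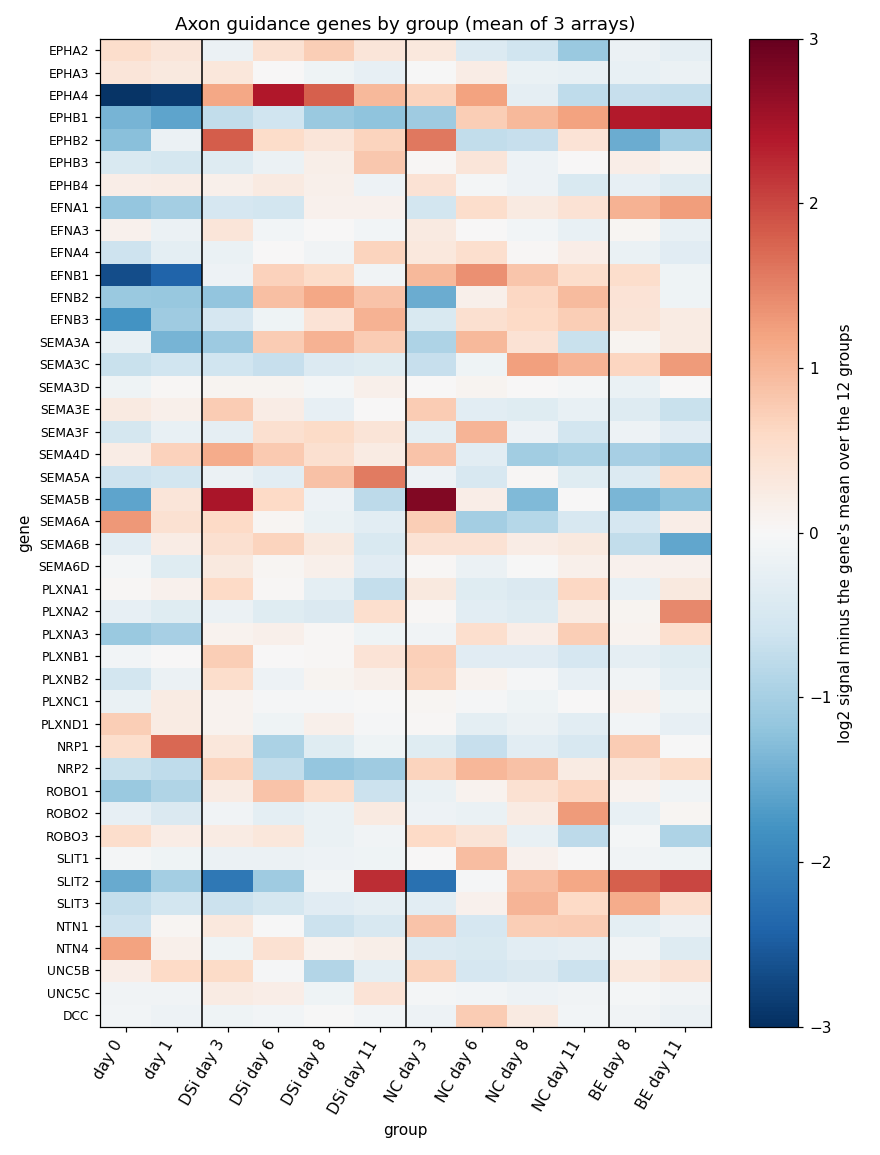
Group means of the 44 genes tested (rows), as log2 signal minus the gene's mean over the 12 groups (colour, from blue for lower to red for higher), with groups in columns and lines between the day 0 and 1, DSi, NC and BE blocks. EPHA4 and EFNB1 are blue on days 0 and 1 and higher from day 3, EPHB1 turns red along the NC and BE columns, and SEMA5B peaks in both day 3 groups.

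Among the EPH receptors, EPHB1, which binds B-type ephrins, was higher in NC than in DSi from day 6 and higher again in BE. EPHA4, which binds ephrins of both classes, rose in every day 11 group from near background, most in DSi. These were the EPH receptors with the largest differences between NC and DSi at day 11 in either direction, and their promoter windows are therefore shown. RefSeq annotation on GRCh38.p14 gives 1 window for EPHB1, on the plus strand of chromosome 3 (chr3:134795010-134795309), and 2 for EPHA4 on the minus strand of chromosome 2, an upstream start (chr2:221574153-221574452) and a downstream start (chr2:221572255-221572554). Each window spans 250 bases before to 50 after an annotated start, and capitals mark matches to the TFAP2 motif.
EPHB1: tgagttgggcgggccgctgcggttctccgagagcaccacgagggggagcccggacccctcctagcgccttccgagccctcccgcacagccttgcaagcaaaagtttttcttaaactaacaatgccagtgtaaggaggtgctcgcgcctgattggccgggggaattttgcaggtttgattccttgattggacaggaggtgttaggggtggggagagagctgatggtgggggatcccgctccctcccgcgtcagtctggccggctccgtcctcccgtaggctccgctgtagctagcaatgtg
EPHA4 upstream start: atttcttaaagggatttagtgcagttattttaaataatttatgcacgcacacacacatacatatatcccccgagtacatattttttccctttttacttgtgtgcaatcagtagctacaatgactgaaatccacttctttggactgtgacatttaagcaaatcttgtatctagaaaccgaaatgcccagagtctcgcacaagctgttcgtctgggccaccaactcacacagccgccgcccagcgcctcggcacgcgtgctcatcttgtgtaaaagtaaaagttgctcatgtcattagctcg
EPHA4 downstream start: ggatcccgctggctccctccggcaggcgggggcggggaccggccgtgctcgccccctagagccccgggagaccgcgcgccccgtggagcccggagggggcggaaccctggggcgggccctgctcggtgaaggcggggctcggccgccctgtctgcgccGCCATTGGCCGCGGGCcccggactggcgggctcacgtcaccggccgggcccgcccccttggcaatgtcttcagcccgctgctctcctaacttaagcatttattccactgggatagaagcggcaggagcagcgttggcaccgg

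The letters CTTTGA and CTTTGT (TCF/LEF core), GCCNNNGGC (TFAP2), CANNTG (bHLH E-box, which includes other E-box forms) and TAATTA (homeodomain) were searched on both strands. The downstream EPHA4 window held 2 overlapping TFAP2 matches, which form the capital run, and the EPHB1 and upstream EPHA4 windows held 0. No TCF/LEF core lay in the 3 windows. Of the 60 windows that RefSeq gives for 40 of the 47 genes, 11.7% held CTTTGA and 11.7% CTTTGT, against 12.9% and 16.1% of all 35116 windows. GCCNNNGGC was in 33.3% of the guidance windows and 23.2% of all, CANNTG in 58.3% and 68.7%, and TAATTA in 3.3% and 4.8%. A match describes the letters of the window, not binding.

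EPHB1 stood at 6.40, 6.36 and 6.13 on the 3 arrays of day 0. The DSi arrays of day 11 read 6.14, 6.35 and 6.94, those of NC 8.59, 9.17 and 8.90, and those of BE 10.22, 9.77 and 10.35. The 3 conditions did not overlap at day 11, with DSi at the level of day 0, NC above it and BE highest. NC exceeded DSi by 1.35 ± 0.26 at day 6 (adjusted p = 0.000393), by 2.07 ± 0.26 at day 8 (adjusted p = 5.78e-08) and by 2.41 ± 0.26 at day 11 (adjusted p = 7.12e-10). At day 3 the means were 6.63 ± 0.18 in NC and 6.95 ± 0.03 in DSi, and the NC minus DSi difference changed by 2.73 ± 0.37 from day 3 to day 11 (adjusted p = 4.55e-07). BE exceeded NC by 1.40 ± 0.26 at day 8 (adjusted p = 0.000583) and by 1.23 ± 0.26 at day 11 (adjusted p = 0.000724). Against day 0, EPHB1 was higher by 2.59 ± 0.26 in NC and by 3.82 ± 0.26 in BE at day 11. Of 9 neural crest markers, 8 were higher in NC than in DSi at day 6 and 9 at days 8 and 11. Between BE and NC, 0 of these markers were called at day 8, and at day 11 2 were higher and 2 lower in BE.

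EPHA4 read 5.05, 5.47 and 5.32 on day 0, above background on 2 arrays. It stood at 9.39 ± 0.67 in DSi and 8.89 ± 0.59 in NC at day 3, the first day with arrays labelled DSi or NC. Its highest group was DSi at day 6 (10.54, 10.53 and 10.82). The DSi arrays of day 11 read 8.87, 9.49 and 9.19, those of NC 7.20, 7.73 and 7.49, and those of BE 7.28, 7.56 and 7.69. NC and BE overlapped, and both lay below DSi and above day 0. Against day 0, EPHA4 rose by 3.91 ± 0.24 in DSi, 2.19 ± 0.24 in NC and 2.23 ± 0.24 in BE. The NC minus DSi difference was -1.20 ± 0.24 at day 6 (adjusted p = 0.000751), -2.06 ± 0.24 at day 8 and -1.71 ± 0.24 at day 11 (adjusted p = 5.28e-07). The change of this difference from day 3 to day 11, -1.22 ± 0.34, had an adjusted p of 0.0229. It was lost without DSi day 3 replicate 2, NC day 3 replicate 1 or 3, DSi day 11 replicate 2 or NC day 11 replicate 1 (-1.08 to -0.84). Of 10 forebrain and eye field markers, 3 were lower in NC than in DSi at day 3, 8 at day 6 and 9 at days 8 and 11.

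EPHA2, a receptor of A-type ephrins, read 6.92, 7.22 and 6.78 on day 0 and 7.54, 6.57 and 6.25 in DSi at day 11. The NC arrays of day 11 read 5.41, 5.38 and 5.18, and the BE arrays 6.07, 5.91 and 6.53. NC was thus the lowest group, with no array above those of DSi or BE. The NC minus DSi difference was -1.35 ± 0.28 at day 8 and -1.47 ± 0.28 at day 11 (adjusted p = 0.000135), and it changed by -1.94 ± 0.40 from day 3 to day 11. EPHA2 was lower than on day 0 in NC (-1.65 ± 0.28) and in BE (-0.80 ± 0.28). BE exceeded NC by 0.85 ± 0.28 at day 11 (adjusted p = 0.0489), a call that was lost without any 1 of the 6 arrays (0.67 to 0.98). The BE fall against day 0 was lost without day 0 replicate 1 or 2 or BE replicate 1 or 2 (-0.83 to -0.67).

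EPHB2, a receptor of B-type ephrins, peaked at day 3 in both treatments, at 8.26 ± 0.37 in DSi and 8.02 ± 0.24 in NC, from 5.02, 4.98 and 5.57 on day 0. It rose already at day 1, by 1.08 ± 0.24. At day 11 it read 7.11, 7.12 and 7.10 in DSi, 6.91, 6.82 and 6.84 in NC and 5.66, 4.88 and 5.67 in BE. NC was lower than DSi at day 6 (-1.29 ± 0.24) and day 8 (-1.05 ± 0.24), and at day 11 the difference of -0.25 ± 0.24 did not pass the test (adjusted p = 0.643). BE was lower than NC at day 11 by a log2 difference of -1.45 ± 0.24 (adjusted p = 1.19e-05), and no BE array reached the NC arrays. The other probe of EPHB2 gave -0.80 for this difference and 0.25 for the rise at day 1, which did not pass there.

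The remaining EPH receptors moved less. EPHB3, a receptor of B-type ephrins, rose in DSi to 5.81 ± 0.12 at day 11, at least 1.57-fold above day 0. It was lower in NC than in DSi by a log2 difference of -0.80 ± 0.22 (adjusted p = 0.00957), which was lost without NC day 11 replicate 2 (-0.73), and the NC minus DSi difference changed by -1.22 ± 0.31 from day 3 to day 11. Its rise in BE (0.58 ± 0.22) rested on 1 BE array above background and was lost without any 1 of day 0 replicate 1, 2 or 3 or BE replicate 2 or 3 (0.43 to 0.62). EPHB4, the EFNB2 receptor known from vessel patterning, fell from 8.84 ± 0.11 on day 0 to 8.20 ± 0.24 in NC and 8.25 ± 0.12 in BE.

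B-type ephrins, the ligands of the EPHB receptors and of EPHA4, were all higher than on day 0 in each day 11 group. EFNB1 read 4.47, 4.46 and 4.61 on day 0, not above background on any array, and 4.78 ± 0.07 on day 1. At day 11 it read 7.07, 7.13 and 7.04 in DSi, 7.92, 7.73 and 7.51 in NC and 6.66, 6.87 and 7.64 in BE. No array of these groups came near the day 0 arrays, and the difference was at least 3.76-fold in DSi, 5.86-fold in NC and 3.71-fold in BE. EFNB1 was also the only guidance gene called between NC and DSi at day 3, with NC arrays at 8.89, 7.48 and 8.13 and DSi arrays at 7.0, 6.83 and 7.28. That difference of 1.13 ± 0.28 (adjusted p = 0.0482) was lost without any 1 of the 3 DSi arrays or NC replicate 1 or 3 (0.77 to 1.25).

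EFNB3 read 5.66, 6.06 and 6.58 on day 0 and rose along the time course, to 8.86, 8.77 and 9.15 in DSi, 8.85, 8.64 and 8.41 in NC and 7.95, 8.15 and 8.25 in BE at day 11. DSi and NC overlapped, and BE lay below both. Against day 0 the differences were 2.82 ± 0.20, 2.53 ± 0.20 and 2.02 ± 0.20 (adjusted p = 1.22e-15, 3.22e-14 and 2.74e-11). At day 1 EFNB3 was higher by 0.72 ± 0.20, which was lost without day 0 replicate 1 or 2 or day 1 replicate 1 or 3 (0.50 to 0.70). EFNB2, the ephrin that marks arterial endothelium stood at 8.55 ± 0.18 on day 0 and at 10.52 ± 0.40 in DSi, 10.61 ± 0.17 in NC and 9.55 ± 0.19 in BE at day 11. BE was lower than NC by a log2 difference of -1.06 ± 0.20 (adjusted p = 0.000111). NC was lower than DSi at day 6 by -0.76 ± 0.20, which was lost without DSi day 6 replicate 3 or NC day 6 replicate 1 or 2 (-0.72 to -0.70).

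Of the A-type ephrins, EFNA1 was higher than on day 0 (5.38 ± 0.12) in NC at 6.98 ± 0.20, in BE at 7.80 ± 0.51 and in DSi at 6.67 ± 1.07. The DSi rise of 1.29 ± 0.36 was lost without DSi day 11 replicate 2 (0.73). A second EFNA1 probe gave smaller differences of 0.23 in DSi, 0.21 in NC and 0.78 in BE, of which the last passed the test. EFNA4 rose by 1.30 ± 0.27 in DSi and by 0.83 ± 0.27 in NC, the latter lost without day 0 replicate 2 or NC replicate 2 or 3 (0.60 to 0.80). EFNA3 was above background on 4 of 36 arrays and was called in 0 comparisons.

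**Figure D3:**
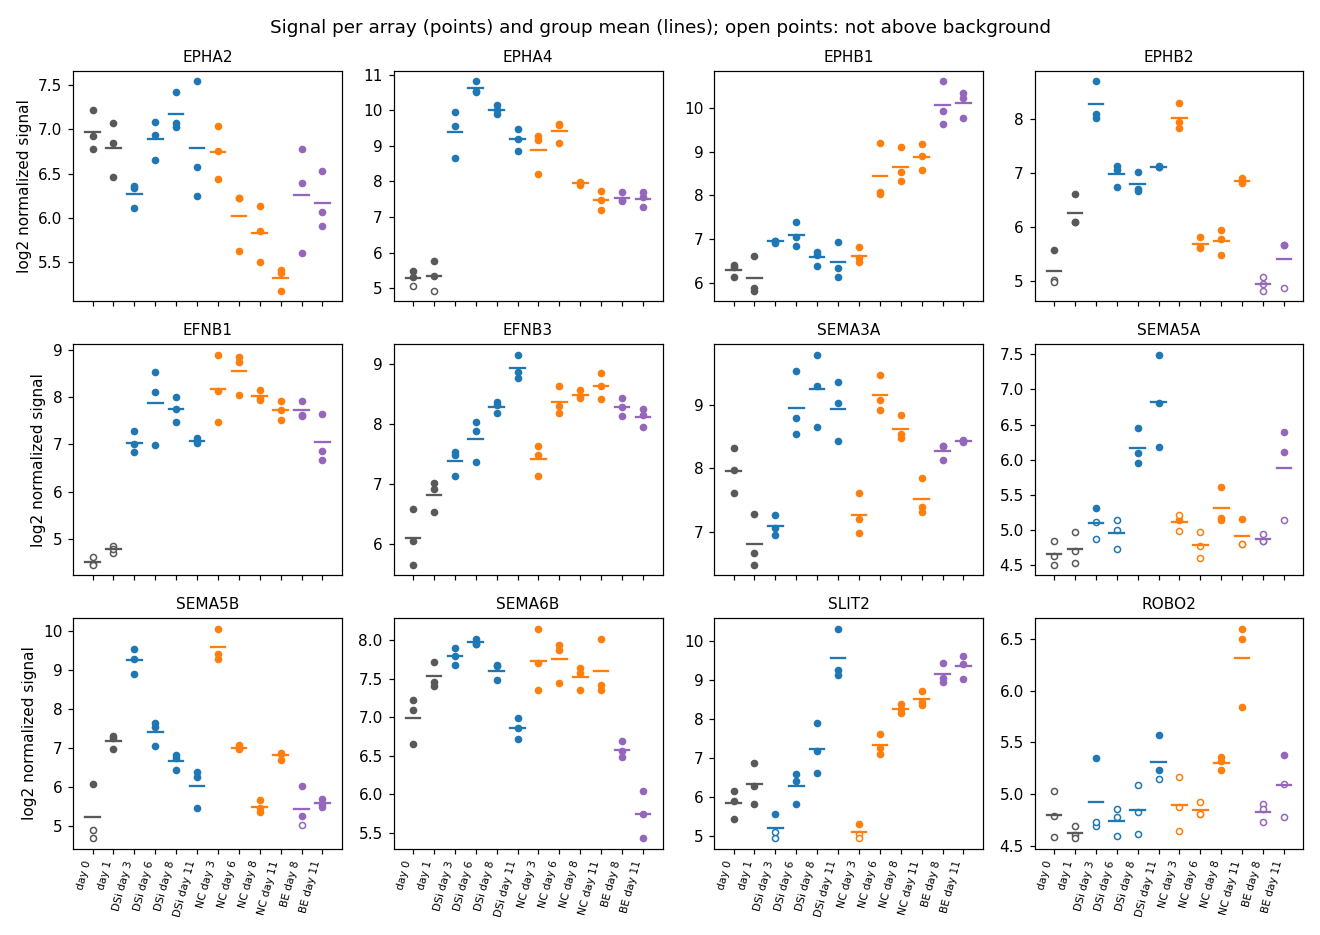
Log2 normalized signal (y axis, a separate scale for each gene) on each array of the 12 groups (x axis) for 12 guidance genes. Points are arrays, lines are means of 3 arrays, colours separate days 0 and 1 (grey), DSi (blue), NC (orange) and BE (purple), and open points are not above background. EPHB1 separates DSi, NC and BE at day 11, EPHA4 jumps between days 1 and 3, and SEMA6B is lowest in BE.

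Semaphorins of class 3 are secreted, and the members measured here took separate courses. SEMA3A, which repels axons through NRP1 and A-type plexins, read 7.97, 7.60 and 8.31 on day 0 and fell by day 1 to 6.48, 6.66 and 7.27 (-1.16 ± 0.25, adjusted p = 0.00193). It stood at 8.95 ± 0.51 in DSi and 9.16 ± 0.29 in NC at day 6. At day 11 the arrays read 8.43, 9.03 and 9.35 in DSi, 7.39, 7.85 and 7.30 in NC, and 8.41, 8.42 and 8.44 in BE. NC lay below both other conditions without overlap, by a log2 difference of -1.43 ± 0.25 from DSi (adjusted p = 2.6e-05), and the difference changed by -1.60 ± 0.35 from day 3 to day 11. BE exceeded NC by 0.91 ± 0.25, which was lost without NC replicate 1 or 3 (0.85 and 0.80).

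SEMA3C, which guides crest cells into the outflow tract in the mouse, was at background on day 0 (4.76 ± 0.17) and at day 11 was at least 2.42-fold higher in NC and at least 2.92-fold higher in BE. NC exceeded DSi by 1.65 ± 0.25 at day 8 and 1.38 ± 0.25 at day 11 (adjusted p = 7.07e-05), with 2 and 1 DSi arrays above background. The NC minus DSi difference changed by 1.47 ± 0.36 from day 3 to day 11. SEMA3F, a ligand that acts through NRP2, was lower in NC than in DSi at day 11 (6.06 ± 0.09 against 6.99 ± 0.27), a difference of -0.92 ± 0.26 that was lost without DSi replicate 1 or 2 (-0.85 and -0.84). SEMA3E, a ligand of PLXND1, was lower than on day 0 in BE (-0.94 ± 0.15) and in NC (-0.49 ± 0.15) and lower in NC than in DSi at day 6 (-0.54 ± 0.15). A second SEMA3E probe gave 0.22, 0.28 and 0.01 for these differences, none past the test. The NC difference was lost without day 0 replicate 1 or NC replicate 2 (-0.35 and -0.44), and that at day 6 without DSi replicate 2 or 3 or NC replicate 1 or 3 (-0.53 to -0.48). SEMA3D was above background on 3 arrays.

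The transmembrane semaphorins of class 5 differed in their courses. SEMA5A read 4.51, 4.85 and 4.63 on day 0, not above background, and 7.49, 6.18 and 6.81 in DSi at day 11, at least 3.16-fold higher. The NC arrays of day 11 read 4.80, 4.80 and 5.16, with 1 above background, and the BE arrays 6.39, 6.11 and 5.14. DSi lay above NC without overlap, whereas BE overlapped NC. The NC minus DSi difference was -1.91 ± 0.26 at day 11 (adjusted p = 2.71e-07) and changed by -1.92 ± 0.37 from day 3. The other SEMA5A probe gave -1.56 at day 11. The day 8 difference of -0.85 ± 0.26 was lost without DSi replicate 2 or 3 or NC replicate 1 or 2 (-0.89 to -0.71), and the BE minus NC difference of 0.97 ± 0.26 without NC replicate 1 or 2 or BE replicate 1 or 2 (0.71 to 0.91). BE at day 11 was also higher than day 0, by 1.22. The other probe gave 0.39 for BE minus NC (adjusted p = 0.41) and 0.49 for BE against day 0 (adjusted p = 0.106).

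SEMA5B read 4.69, 4.91 and 6.09 on day 0 and rose by day 1 to 6.97, 7.26 and 7.31 (1.95 ± 0.28, adjusted p = 3.04e-06). It was highest at day 3, at 8.90, 9.30 and 9.56 in DSi and 9.43, 9.30 and 10.07 in NC, which overlapped. At day 11 it read 6.40, 6.27 and 5.46 in DSi, 6.89, 6.86 and 6.70 in NC and 5.49, 5.56 and 5.70 in BE, with NC above BE on every array (BE minus NC -1.23 ± 0.28, adjusted p = 0.00168). NC was lower than DSi at day 8 by -1.17 ± 0.28. Against day 0, NC at day 11 was higher by 1.59. The DSi difference from day 0 at day 11, 0.81 ± 0.28, was lost without day 0 replicate 1 or 2 or DSi replicate 1 or 2 (0.54 to 0.70) and was 1.24 without day 0 replicate 3. A second SEMA5B probe gave -0.18 at day 1, 0.13 in DSi and -0.30 in NC at day 11 against day 0, 0.34 for BE minus NC at day 11 and 0.04 for NC minus DSi at day 8. None of these passed the test, so these results rest on the brighter probe.

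Among the semaphorins of classes 4 and 6, SEMA4D, a ligand of PLXNB1, was lower in NC than in DSi at day 6 (-1.08 ± 0.16), day 8 (-1.53 ± 0.16) and day 11 (-1.19 ± 0.16, adjusted p = 1.86e-07). Its day 11 means were 8.69 ± 0.23 in DSi, 7.50 ± 0.21 in NC and 7.36 ± 0.24 in BE, against 8.67 ± 0.12 on day 0, and the NC minus DSi difference changed by -0.92 ± 0.23 from day 3. SEMA6A, a ligand of A-type plexins, fell from 11.88 ± 0.10 on day 0 to 10.25 ± 0.05 in DSi, 10.10 ± 0.19 in NC and 10.78 ± 0.31 in BE at day 11, and it was lower already at day 1 (-0.83 ± 0.17). It was lower in NC than in DSi at day 6 (-1.07 ± 0.17) and day 8 (-0.67 ± 0.17). BE exceeded NC by 0.68 ± 0.17 at day 11, which was lost without NC replicate 1 or BE replicate 2 (0.58 and 0.57).

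SEMA6B, also a ligand of A-type plexins, had its lowest group in BE at day 11. The arrays of day 11 read 5.75, 5.43 and 6.05 in BE, 8.01, 7.42 and 7.36 in NC, and 6.86, 6.99 and 6.72 in DSi, against 7.22, 7.10 and 6.65 on day 0. No BE array reached those of another condition. BE was lower than NC by -0.94 ± 0.21 at day 8 (adjusted p = 0.00512) and by -1.86 ± 0.21 at day 11 (adjusted p = 2.48e-09), and lower than day 0 by -1.25 ± 0.21. NC exceeded DSi by 0.74 ± 0.21 at day 11, which was lost without DSi replicate 3 or NC replicate 1 (0.67 and 0.54), and exceeded day 0 by 0.61 ± 0.21, which was lost without day 0 replicate 3 or NC replicate 1 (0.44 and 0.40). The other 2 probes of SEMA6B gave -0.42 and -0.07 for BE minus NC at day 11, and -0.08 and -0.18, of opposite sign, for NC minus DSi at day 11. For NC against day 0 they gave 0.36 and -0.10. None of these passed the test, so the SEMA6B results rest on the brightest probe. SEMA6D, a ligand of PLXNA1, was called in 0 comparisons.

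Plexins are the signalling receptors of semaphorins. PLXNA1, the partner of neuropilins in SEMA3A signalling, was the plexin with the largest NC to DSi difference at day 11, at 8.65 ± 0.39 against 7.31 ± 0.25 (1.34 ± 0.18, adjusted p = 2.06e-07). The difference at day 3 was -0.30 ± 0.18, and it changed by 1.64 ± 0.26. Against day 0 (8.05 ± 0.07), PLXNA1 was lower in DSi (-0.75 ± 0.18) and higher in NC (0.59 ± 0.18), the latter lost without NC replicate 1 (0.37). PLXNA2 was at background on day 0 (4.73 ± 0.07) and at least 2.37-fold higher in BE at day 11, where BE exceeded NC by 1.19 ± 0.22 (adjusted p = 7.85e-05), with 1 NC array above background. In DSi it was at least 1.23-fold above day 0, a call lost without DSi replicate 1 (0.56). PLXNA3 was higher than on day 0 at day 11, at least 1.38-fold in DSi, 2.52-fold in NC and 2.13-fold in BE. NC exceeded DSi in PLXNA3 by 0.87 ± 0.28, which was lost without DSi replicate 2 or 3 or any NC replicate (0.73 to 0.94).

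PLXNB1, the receptor of SEMA4D, was lower in NC than in DSi at day 11, at 7.54 ± 0.25 against 8.46 ± 0.45 (-0.91 ± 0.21, adjusted p = 0.00121), as was its ligand. PLXNB2 was higher in DSi at day 11 than on day 0 by 0.71 ± 0.21, which was lost without DSi replicate 1 or 3 (0.61 and 0.58). PLXND1, the receptor of SEMA3E, was lower than on day 0 in all day 11 groups, by -0.75 ± 0.28 in DSi and -0.97 ± 0.28 in BE, each with 1 array above background, and at least 1.74-fold in NC, with 0. The call was lost in each group without day 0 replicate 2 (fitted differences of -0.43 in DSi, -0.65 in BE and -0.74 in NC), and that of DSi also without DSi replicate 1 or 2 (-0.59 and -0.62). PLXNC1, the receptor of SEMA7A, was above background on 8 arrays and called in 0 comparisons.

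The neuropilins bind class 3 semaphorins. NRP2, the SEMA3F receptor, was higher in NC than in DSi at day 6 (7.04 ± 0.16 against 5.31 ± 0.56), at day 8 (at least 3.49-fold) and at day 11 (6.30 ± 0.18 against 4.98 ± 0.64, adjusted p = 0.00166). It exceeded day 0 by 0.92 ± 0.31 in NC and by 1.22 ± 0.31 in BE at day 11, the former lost without day 0 replicate 3 or NC replicate 2 (0.88 and 0.83). Another NRP2 probe had the opposite sign for the 2 comparisons with day 0 (-0.49 and -0.15), neither past the test. For NC minus DSi it gave 0.81 at day 6, which passed, and 0.28 at day 8 and 0.20 at day 11 (adjusted p = 0.628 and 0.698), while a further probe gave 1.35, 1.64 and 1.17, all past the test. NRP1, the SEMA3A receptor, was higher at day 1 than on day 0 by 1.19 ± 0.30, which was lost without day 0 replicate 3 or day 1 replicate 2 or 3 (1.03 to 1.10). BE exceeded NC in NRP1 at day 8 by 1.08 ± 0.30, which was lost without NC replicate 1 or 3 or any BE replicate (0.91 to 1.17). The probes of NRP1 disagreed for NC at day 11 against day 0, where the brighter gave -1.02 ± 0.30 (adjusted p = 0.00643) and the other 1.56 (adjusted p = 0.000235), so no direction is given for it.

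SLIT2, a secreted repellent read by ROBO receptors, rose in all conditions by different courses. It read 5.90, 5.42 and 6.15 on day 0, and 5.19 ± 0.32 in DSi and 5.09 ± 0.19 in NC at day 3. At day 6 it read 6.39, 6.59 and 5.82 in DSi and 7.25, 7.61 and 7.09 in NC, and at day 8 6.61, 7.16 and 7.89 in DSi, 8.15, 8.37 and 8.26 in NC and 9.05, 8.94 and 9.43 in BE. At day 11 DSi had overtaken NC, with 9.11, 9.26 and 10.31 against 8.72, 8.35 and 8.43, while BE read 9.41, 9.01 and 9.60. The arrays of NC and DSi did not overlap on any of these 3 days, with NC higher on days 6 and 8 and DSi higher on day 11. Against day 0 the day 11 differences were 3.73 ± 0.28 in DSi, 2.68 ± 0.28 in NC and 3.51 ± 0.28 in BE. The NC minus DSi difference was 1.04 ± 0.28 at day 6 and 1.04 ± 0.28 at day 8 (adjusted p = 0.0154 and 0.0126), and -1.05 ± 0.28 at day 11 (adjusted p = 0.00724). The call at day 6 was lost without DSi replicate 3 or NC replicate 2 (0.82 and 0.90), at day 8 without DSi replicate 1 or 2 or NC replicate 2 (0.74 to 1.01), and at day 11 without DSi replicate 3 (-0.68).

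SLIT3 was not above background on day 0 and at day 11 was at least 1.94-fold higher in NC and 1.84-fold higher in BE. NC exceeded DSi by 1.39 ± 0.28 at day 8 (adjusted p = 0.000616). At day 11 the NC and DSi arrays overlapped, and the difference of 0.87 ± 0.28 was lost without DSi replicate 1 or 2 or NC replicate 1 (0.57 to 0.69) and was 1.35 without DSi replicate 3. SLIT1 was above background on 3 arrays only, all of NC at day 6, where it was at least 1.28-fold above DSi. It met the detection filter through that group alone, so this call follows in part from the filter.

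ROBO2, a SLIT receptor, read 5.84, 6.50 and 6.60 in NC at day 11, its highest group, against 5.23, 5.14 and 5.57 in DSi and 4.78, 5.38 and 5.10 in BE. On day 0 it read 4.58, 5.03 and 4.79, not above background, so NC was at least 2.21-fold higher. The 3 NC arrays lay above those of both other conditions, with NC minus DSi at 1.00 ± 0.21 (adjusted p = 0.00057) and BE minus NC at -1.22 ± 0.21 (adjusted p = 3.34e-05). The second ROBO2 probe gave 0.56 and -0.92, of which the first did not pass the test. The change from day 3 to day 11, 1.04 ± 0.30, was lost without DSi day 3 replicate 1, NC day 3 replicate 1 or 3, DSi day 11 replicate 1 or 2, or NC day 11 replicate 2 or 3 (0.82 to 1.03). ROBO2 and the pan-neuronal markers were both highest in NC at day 11.

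ROBO1, the other SLIT receptor of wide expression, stood at 8.09 ± 0.36 in NC, 6.78 ± 0.27 in DSi and 7.34 ± 0.64 in BE at day 11. NC exceeded DSi by 1.31 ± 0.30 (adjusted p = 0.00157), after a difference of -0.46 ± 0.30 at day 3 and a change of 1.77 ± 0.43. It was above day 0 (6.31 ± 0.15) in NC by 1.78 ± 0.30 and in BE by 1.03 ± 0.30, the latter lost without BE replicate 1 (0.68). ROBO3, which controls midline crossing, fell against day 0 (7.37 ± 0.07) to 6.07 ± 0.58 in NC and 5.91 ± 0.36 in BE.

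Netrins and their receptors included several genes near background. NTN1, the floor plate attractant, was not above background on day 0 and at least 2.27-fold higher in NC at day 11. Its highest group was NC at day 3 (6.45 ± 0.11), when DSi stood at 5.90 ± 0.18. In NC at day 6 it was down to 5.09 ± 0.31, with 1 array above background. NC exceeded DSi at least 2.28-fold at day 8 and by 1.25 ± 0.24 at day 11 (adjusted p = 0.000168). BE was lower than NC by -1.02 ± 0.24 at day 8 and -0.93 ± 0.24 at day 11. The day 8 call was lost without NC replicate 2 or BE replicate 1 or 3 (-0.96 to -0.78), and the day 11 call without NC replicate 1 or BE replicate 3 (-0.81 and -0.83). NTN4 was lower than on day 0 (6.32 ± 0.21) from day 1 on, at 5.28 ± 0.28 on day 1 and 5.29 ± 0.29 in DSi at day 11. In NC and BE at day 11 it was not above background on any array, at least 2.27-fold and 2.29-fold below day 0. At day 6 NTN4 in NC was at least 1.31-fold below DSi, a call lost without DSi day 6 replicate 3 (-0.73). A second NTN4 probe gave differences of 0.04 to 0.35 in these comparisons, none past the test. SEMA6A, NTN4 and PLXND1 were highest on day 0, as was the summed level of the mesenchyme markers (14.01 to 14.04, against 11.52 to 13.50 in the other groups). TAGLN, at 13.57 ± 0.01, had the highest signal of that list on day 0, while COL3A1, a defining collagen, was not above background there. Of the 9 markers, 1 was higher and 3 lower at day 1 than on day 0, and at day 11 1 was higher and 4 lower in DSi, 3 higher and 4 lower in NC, and 3 higher and 2 lower in BE, so the list did not move in 1 direction. The part of these markers in the result was not tested.

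UNC5B, a netrin receptor, was higher in BE than in NC at day 11 by 1.09 ± 0.28 (6.21 ± 0.17 against 5.13 ± 0.57, adjusted p = 0.00606), with 1 NC array above background. This was lost without NC replicate 2 or 3 (0.96 and 0.88). Its fall in NC against day 0, -0.85 ± 0.28, was lost without day 0 replicate 2 or NC replicate 2 or 3 (-0.72 to -0.64). DCC, the attractive netrin receptor, was above background on 3 arrays and called only between NC and DSi at day 6, where it was at least 1.09-fold higher. Those arrays were 2 of NC at day 6 and 1 of NC at day 8, so DCC met the detection filter through NC alone. UNC5C was above background on 5 arrays and called in 0 comparisons.

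Of the 19 guidance genes called between NC and DSi at day 11, 11 kept their call and direction in all alternatives and with each array left out, namely EPHA2, EPHA4, EPHB1, SEMA3A, SEMA3C, SEMA4D, SEMA5A, PLXNA1, NRP2, ROBO1 and NTN1. Between BE and NC at day 11, 5 of the 13 did so, namely EPHB1, EPHB2, SEMA6B, PLXNA2 and ROBO2. The plot of the day 11 differences gives all 44 genes in both comparisons, which share the NC arrays. For EPHA2, SEMA3A and SEMA5A the NC minus DSi differences of -1.47, -1.43 and -1.91 stood beside BE minus NC differences of 0.85, 0.91 and 0.97. For ROBO2 and NTN1 the values were 1.00 and 1.25 beside -1.22 and -0.93. EPHB1 was higher in both steps, by 2.41 and 1.23. As both comparisons contain the NC arrays, opposite signs are not independent of each other.

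**Figure D4:**
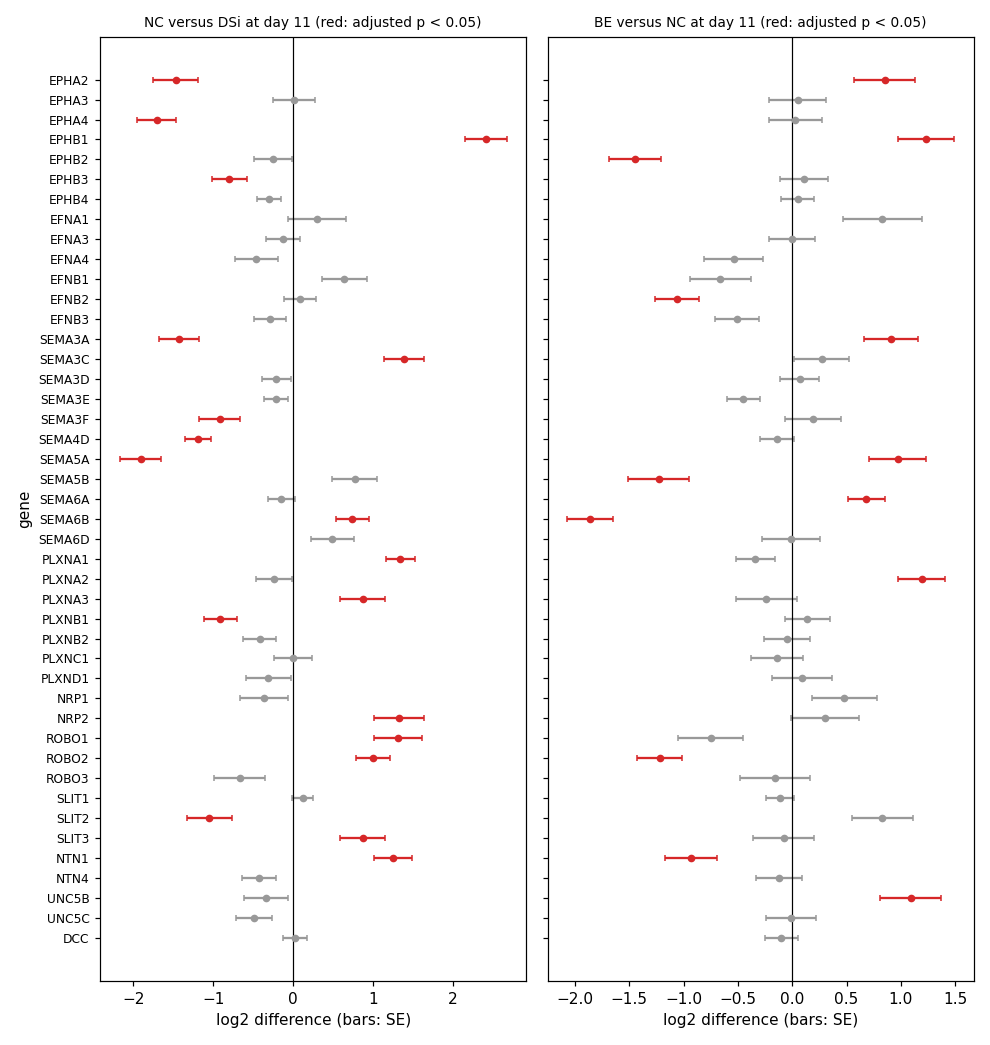
Log2 differences at day 11 (x axes; bars are the SE of the fit) for the 44 guidance genes (y axis), NC minus DSi on the left and BE minus NC on the right, in red where the adjusted p was under 0.05. On the left EPHB1 lies farthest to the right at 2.41 and SEMA5A farthest to the left at -1.91, and on the right EPHB1 is at 1.23 and SEMA6B at -1.86.

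Whether the NC minus DSi difference moved with time was asked by its change from day 3 to day 11. Of the 44 genes 5 changed upward and 6 downward (25%), while 5.44% of all genes did, 2.89% upward and 2.55% downward. EPHB1, ROBO1, PLXNA1, SEMA3C and ROBO2 changed upward, and EPHA2, SEMA5A, SEMA3A, EPHB3, EPHA4 and SEMA4D downward. At day 3 SEMA3C was above background on 0 arrays of either condition, ROBO2 on 0 of NC and 1 of DSi, EPHB3 on 0 of DSi and 1 of NC, and SEMA5A on 1 of each, so their day 3 differences were measured at or near background. The plot over days gives their courses, in which EPHB1, EPHA4 and SEMA4D had passed the test by day 6, EPHA2, SEMA3C and SEMA5A by day 8, and SEMA3A, EPHB3, ROBO1, PLXNA1 and ROBO2 at day 11.

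**Figure D5:**
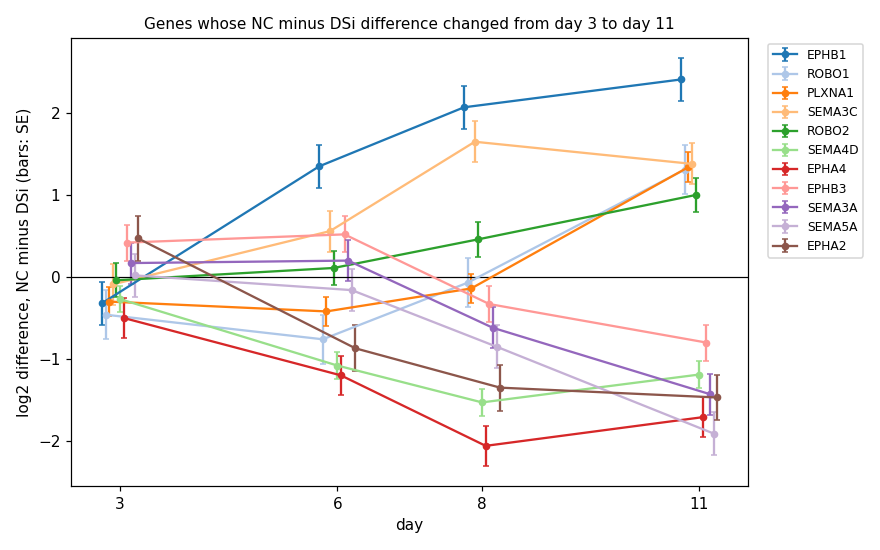
Log2 difference NC minus DSi (y axis; bars are the SE of the fit) on days 3, 6, 8 and 11 (x axis) for the 11 guidance genes whose difference changed from day 3 to day 11. At day 3 the values lie between -0.50 and 0.47, and at day 11 between -1.91 (SEMA5A) and 2.41 (EPHB1).

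Other members of these families and related receptors and ligands, 29 of a list of 32 tested, were called in 7 cases between NC and DSi at day 11 (2 higher and 5 lower, 24.1%, against 11.1% of all genes). NTN5, a netrin-like gene, was at least 20.3-fold higher in NC than in DSi and at least 20.9-fold higher in NC than in BE. FLRT2 and RGMA, a ligand of UNC5 receptors and a ligand of neogenin, were lower in NC by -1.79 ± 0.30 and -1.45 ± 0.20. Against day 0, 5 were higher and 3 lower in DSi at day 11 (27.6%, with 27.4% of all genes), 5 higher and 3 lower in NC (27.6%, with 29.4%), and 2 higher and 4 lower in BE (20.7%, with 28.8%), shares near or below those of all genes. FLRT3, an adhesion molecule that binds UNC5B, rose by 4.43 ± 0.18, 3.40 ± 0.18 and 3.49 ± 0.18, and EPHA1 fell (-4.07 ± 0.29, -4.01 ± 0.29 and -3.77 ± 0.29). UNC5A, a netrin receptor, was higher at day 1 than on day 0 by 2.77 ± 0.34, with 1 day 0 array above background, and at least 7.01-fold lower in NC than in DSi at day 6. Between BE and NC at day 11, 0 were higher (4 at an unadjusted p under 0.05 in limma) and 4 lower (13.8%, against 8.74% of all genes), among them RGMA (-1.84 ± 0.20) and DRAXIN, a netrin antagonist (-1.56 ± 0.22).

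Of 54 intracellular effectors and adhesion molecules of axon growth, 47 were tested, and 11 were higher and 4 lower in NC than in DSi at day 11 (31.9%, against 11.1% of all genes). The higher ones included GAP43, a growth cone protein (3.10 ± 0.25), CHN2, a RAC-GAP of the chimaerin family (3.23 ± 0.24, with 2 DSi arrays above background), and the adhesion molecule L1CAM (at least 3.36-fold). Lower were VAV3 (-1.65 ± 0.29), DPYSL3, a collapsin response mediator (-1.19 ± 0.14), and TIAM1, a RAC exchange factor (-1.09 ± 0.24). Between BE and NC at day 11, 2 were higher and 12 lower (29.8%, against 8.74% of all genes), led by the adhesion molecule CNTN2 (at least 7.26-fold lower), L1CAM (-1.88 ± 0.29) and SRGAP3, a GAP that binds ROBO receptors (-1.86 ± 0.23). At day 3 the list gave 1 call (2.13%, against 0.481% of all genes), CNTN2, which was higher in NC by 2.29 ± 0.41 (adjusted p = 0.000959). GAP43 and L1CAM are also used as neuronal markers, and the pan-neuronal markers of the separate list moved in the same comparisons. The part of that list in these differences was not tested.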

How the data were processed

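RNA of 36 samples in 12 groups of 3 was read on Illumina beadchips, grouped and numbered as labelled. Per the file headers, the deposited probe table held a mean bead signal per probe and array, an intensity on a linear scale not normalized between arrays, and a detection p-value for each. A second deposited table held the authors' values for 34687 gene symbols. The authors' columns shared a median of 6.723 and a maximum of 14.261, so these log2 values had been quantile normalized. The submitters' processing notes name Partek, and no other step is stated.

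Probes came without gene names. A symbol was tied to neighbouring probes whose mean signal gave the authors' values through 1 monotone function per array, within a root mean square difference of 0.002 for 34393 symbols, all 47 guidance genes among them, and by place for the other 294. Symbols were updated through RefSeq tables (17585 were current, 3475 updated and 13627 kept), and the table lists DRAXIN as C1ORF187. The 47 genes had 74 probes, 28 of them 1 probe each and 19 several. TDGF1, a pluripotency marker, was not used here.

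Signals were background-corrected with limma 3.58.1 (normexp with detection p-values, offset 16), then log2 transformed after quantile normalization, in R 4.3.3. The filter was a detection p below 0.05 in 3 or more arrays (29106 probes), and the brightest probe of a gene was used. All 36 arrays entered 1 linear model with a coefficient for each group, with empirical Bayes moderation and a trend (24 residual degrees of freedom, median residual SD 0.271), without a replicate block. Tests were two-sided, with Benjamini-Hochberg adjustment within a comparison over 22850 genes. The offset compresses differences of dim genes. A fold against a group with 0 arrays above background is a bound, in which each dim array counts with the lowest detected signal on it, or with the gene's measured signal if that is larger. The number of arrays limits the precision. On data simulated for NC versus DSi at day 11 with 200 of 22850 genes changed, 70% of changes of 1 and 99% of changes of 2 on the log2 scale were recovered, with 7 false calls. The simulated noise was independent between arrays, and fewer genes were changed than the 2538 called in the data, so these rates may not hold for the data.

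Genes past the threshold were open to naming, up to 12 a direction and comparison. Values per array were given for genes among the 5 largest differences of NC versus DSi and BE versus NC at day 11 and of DSi and NC at day 11 versus day 0. Of each of 2 further pathway lists, up to 3 genes a direction and comparison were open to naming. The guidance genes and lists were chosen with earlier results of these data known. Deviations from group means correlated between same-numbered arrays at 0.11 to 0.31 in NC versus DSi at days 3, 6 and 11 and in BE versus NC at day 11. At day 8 all pairs were also positive, with a lowest value of 0.05 for NC versus DSi and 0.09 for BE versus NC. In the comparisons with day 0 the lowest value of a comparison was -0.06 to 0.01. The labels do not say what a number marks. Slides are not named in the files, so no slide block was fitted. Alternatives were no background correction, median scaling, the authors' values, other detection filters, the mean of probes, a replicate block, only the groups compared, and each array left out.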

Additional observations from a re-analysis of the deposited data

Results flagged for a closer look

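For 11 guidance genes the difference between NC and DSi changed from day 3 to day 11, tested as a difference of differences in the limma fit with adjustment over all 22850 genes. The change was upward for EPHB1 (2.73, from -0.32 to 2.41), ROBO1 (1.77, from -0.46 to 1.31), PLXNA1 (1.64, from -0.30 to 1.34), SEMA3C (1.47, from -0.09 to 1.38) and ROBO2 (1.04, from -0.04 to 1.00). It was downward for EPHA2 (-1.94, from 0.47 to -1.47), SEMA5A (-1.92, from 0.02 to -1.91), SEMA3A (-1.60, from 0.17 to -1.43), EPHB3 (-1.22, from 0.42 to -0.80), EPHA4 (-1.22, from -0.50 to -1.71) and SEMA4D (-0.92, from -0.27 to -1.19). All values are log2 differences. EPHA2, EPHB1, EPHB3, SEMA3C, SEMA5A, PLXNA1 and ROBO1 kept the call in all alternatives and with each array left out. At day 3 SEMA3C was above background on 0 arrays of either condition, ROBO2 on 0 of NC, EPHB3 on 0 of DSi and SEMA5A on 1 of each, so the changes of these 4 genes start from values at or near background. The second ROBO2 probe gave 0.47 for its change, which did not pass the test (adjusted p = 0.516).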

How the results depend on the processing

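Guidance genes had 153 calls over all comparisons, not all of them printed above, and 95 kept call and direction in all alternatives and with each array left out. Each alternative was compared with the same 153 values (151 for detection on at least 6 arrays). The call was lost for 7 without background correction, 26 with median scaling, 17 with the authors' values, 1 with detection on at least 6 arrays, 8 without a detection filter, 14 with the mean of probes and 17 with only the groups compared; the cause was not tested. NRP1 in NC at day 11 against day 0 turned from -1.02 to 0.07 with the authors' values and 0.27 with the mean of probes, and its probes have opposite signs. With the replicate block the guidance gene counts were 7, 21, 29 and 24 for day 1 and day 11 DSi, NC and BE against day 0. They were 1, 15, 14 and 19 for NC versus DSi at days 3, 6, 8 and 11. BE versus NC gave 4 and 16, and the change from day 3 to 11 gave 13. Over all genes the counts with the block, in the same order, were 1257, 6626, 7083 and 6958, 135, 1470, 1809 and 2827, 523 and 2298, and 1450. Each of these was above the count over all genes without the block. With the block, 0 of the 153 calls were lost.

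The count at day 1 was 4 with median scaling (1 higher, 3 lower), and the single call between NC and DSi at day 3 was 0 with median scaling, the authors' values, detection on at least 6 arrays, no filter, the mean of probes or only the groups compared. With 1 array left out, counts ranged from 5 to 6 at day 1, 16 to 21 in DSi, 26 to 28 in NC and 21 to 24 in BE at day 11, from 0 to 2, 8 to 14, 11 to 14 and 16 to 18 for NC versus DSi by day, from 2 to 3 and 8 to 12 for BE versus NC, and from 9 to 13 for the change. The count of 2 came without BE day 8 replicate 1 or 3, and that of 8 without NC day 11 replicate 1. Over all genes the same fits gave 615 to 821 calls at day 1, 5335 to 5669 in DSi, 5684 to 6073 in NC and 5610 to 5924 in BE. For NC versus DSi by day they gave 61 to 165, 864 to 1094, 1137 to 1295 and 2027 to 2295. For BE versus NC they gave 254 to 313 and 1452 to 1715, and for the change 1028 to 1281.

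Median scaling, which moved the median of all genes by -0.16 at day 1, -0.106 for NC versus DSi at day 3, -0.144 for BE versus NC at day 8 and 0.138 for the change, gave 1172 calls over all genes at day 1 (9.73% of them higher, against 54.7%), and 33.6% higher against 50.2% for DSi at day 11. It gave 49 calls for NC versus DSi at day 3 (42.9% higher, against 55.5%), 604 at day 6 and 1569 at day 11 (58.8% higher), 281 for BE versus NC at day 8 (44.8% higher, against 67.4%), 66.6% higher against 53.5% at day 11, and 785 calls (71.2% higher, against 53.1%) for the change. With only the groups compared, 42 genes were called between NC and DSi at day 3, 1681 at day 11 and 805 for the change, against 110, 2538 and 1242. With 1 array left out, the counts over all genes fell as low as 615 at day 1, 61 for NC versus DSi at day 3 and 254 for BE versus NC at day 8, against 1006, 110 and 423, and rose to 165 at day 3. Genes near background (EFNA3, EPHA3, PLXNC1, SEMA3D, SEMA6D, UNC5C, DCC, SLIT1) are limited by signal, and their differences by the offset.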
